A study of Mus musculus with 27 samples.

Results

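Hand1, Hand2, Twist1, Twist2, Tcf15, Tcf21 and Msc are transcription factors of the Twist and Hand branches of the basic helix-loop-helix (bHLH) class. They were chosen by name as 7 such genes of the limb bud, heart, somite and branchial arch mesoderm, out of 23279 genes in the table. They are not a full set, and further bHLH genes, Scx among them, are taken up below. All 7 passed the filter of 1 CPM (reads per 1000000 reads on genes) or more in at least 3 libraries, as did 14438 genes in all. Their mRNA was compared between limb bud-like mesenchyme made from mouse embryonic stem (ES) cells and tissues of the mouse embryo, by RNA-seq of 9 groups with 3 libraries each.

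ES-FLB and ES-HLB cells came from EB5 Hand2::GFP +/- ES cells, grown as aggregates to day 9. Forelimb bud type (ES-FLB) aggregates had been exposed to retinoic acid and hindlimb bud type (ES-HLB) aggregates to an antagonist of it, after BMP4 and Matrigel in both. By the study's methods, both types later also received hydrocortisone with methylcellulose, a BMP inhibitor and Wnt3. The reporter was knocked into 1 allele of Hand2 in this 1 line, and GFP-positive cells, pooled from 96 aggregates, were sorted from both types. Forelimb buds (FLBs) and hindlimb buds (HLBs) labelled E10.0, here called early, FLBs and HLBs at E10.5, and, at E10.5, also heart (Ca), branchial arch (BA) and tail bud (TB), were cut from 3 Slc:ICR embryos, with no sorting described. The study's results text and legends give the early HLBs a later stage than the early FLBs, so limb type and stage cannot be told apart in that pair. The labels do not say whether libraries of a group came from separate cultures or animals, so p-values measure only the spread between these libraries. In such bulk RNA, fewer cells of a type and less mRNA per cell cannot be told apart.

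A bHLH protein binds DNA as a dimer, typically at the 6-base E-box CANNTG, and the proteins described here usually pair with a widely expressed E protein (Tcf3, Tcf4 or Tcf12). Id proteins carry the dimer-forming helices but no DNA-binding region and hold E proteins away from such pairs. In the limb bud, Hand2 acts in the posterior mesenchyme upstream of Shh, and Twist1 is required for the mesenchyme to survive and grow, with the balance between Hand2 and Twist1 known to matter for digit number. Hand1 marks lateral plate mesoderm and the left ventricle, Twist2 dermis and other mesenchyme, Tcf15 (paraxis) the somites, Tcf21 the epicardium and mesenchyme of internal organs, and Msc (MyoR), like Tcf21, the precursors of jaw muscle.

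Replicate 2 of the E10.5 HLBs had no values on 7 chromosomes, chromosome 8 with Hand2 among them, and was left out, so 26 libraries were used and that group had 2. The early limb bud libraries held 19635822 to 22136637 reads on genes and the others 5543760 to 8541956, so that 3 reads, taken as the detection floor, were worth 0.136 to 0.541 CPM. Limb type in the ES cells and the heart identity of Ca showed in single marker genes. Tbx5, the forelimb T-box gene, averaged 69.3 CPM in ES-FLBs and 3.09 CPM in ES-HLBs, Tbx4, its hindlimb counterpart, 2.94 and 55.2 CPM, and the heart gene Myh6, at most 0.469 CPM in any ES library, averaged 2585 CPM in Ca. Lhx9, a limb bud mesenchyme gene, stood at only 4.67 and 5.38 CPM in ES-FLBs and ES-HLBs, against 132 to 190 CPM as means of the limb bud groups. The whole list of 7 limb bud mesenchyme genes summed to 655 to 680 CPM in ES-FLBs and 805 to 844 CPM in ES-HLBs. Limb buds held 959 to 1427 CPM and BA 733 to 846 CPM, so this sum did not place the ES cells above BA. All levels below are CPM after scaling between libraries, and each log2 difference is on the scale of log2(CPM + 0.5), which understates changes of low genes.

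On mm10 (GRCm38), Hand2 lies at chr8:57320983-57324517 on the plus strand. Hand1 lies at chr11:57828713-57832147 (minus strand), Twist1 at chr12:33957671-33959831 (plus), Twist2 at chr1:91801461-91848034 (plus), Tcf15 at chr2:152143056-152149097 (plus), Tcf21 at chr10:22817263-22820143 (minus) and Msc at chr1:14753344-14756089 (minus). Exons of Hand2, Twist2 and Msc overlap transcripts of the other strand (Hand2os1 by 461 bases, Gm29100 by 1477 and Gm9947 by 537). The libraries were stranded but the strand setting of the counting is not given in the sources used here, so reads of such pairs may have been shared.

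The 250 bases before the start of Hand2 are shown because this locus drives both the Hand2 mRNA and the reporter that defined the sorted cells, and those of Twist1 because it was the most abundant member per length in 8 of the 9 groups. Both were read from RefSeq on GRCm38, 5′ to 3′ on the plus strand of the gene, with E-boxes (CANNTG, which reads the same on both strands as a pattern) in capitals.
Hand2, chr8:57320733-57320982: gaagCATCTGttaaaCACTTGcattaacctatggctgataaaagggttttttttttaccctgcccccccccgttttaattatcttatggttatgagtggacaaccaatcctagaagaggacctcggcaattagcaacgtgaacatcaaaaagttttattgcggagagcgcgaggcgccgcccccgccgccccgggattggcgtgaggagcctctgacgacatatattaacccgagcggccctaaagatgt
Twist1, chr12:33957421-33957670: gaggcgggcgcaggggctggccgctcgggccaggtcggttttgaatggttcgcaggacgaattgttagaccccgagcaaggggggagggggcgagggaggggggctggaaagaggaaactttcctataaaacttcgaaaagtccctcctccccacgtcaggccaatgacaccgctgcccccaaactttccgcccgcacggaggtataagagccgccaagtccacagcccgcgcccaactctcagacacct
The Hand2 window held 2 E-boxes, CATCTG and CACTTG, near its far end, and the Twist1 window none. Of 32851 windows of this length before mouse genes, 66.2% held an E-box, so either case is common. The windows of Tcf21 and Twist2 held none either, and Hand1, Tcf15 and Msc had no entry in the table.

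**Figure D1:**
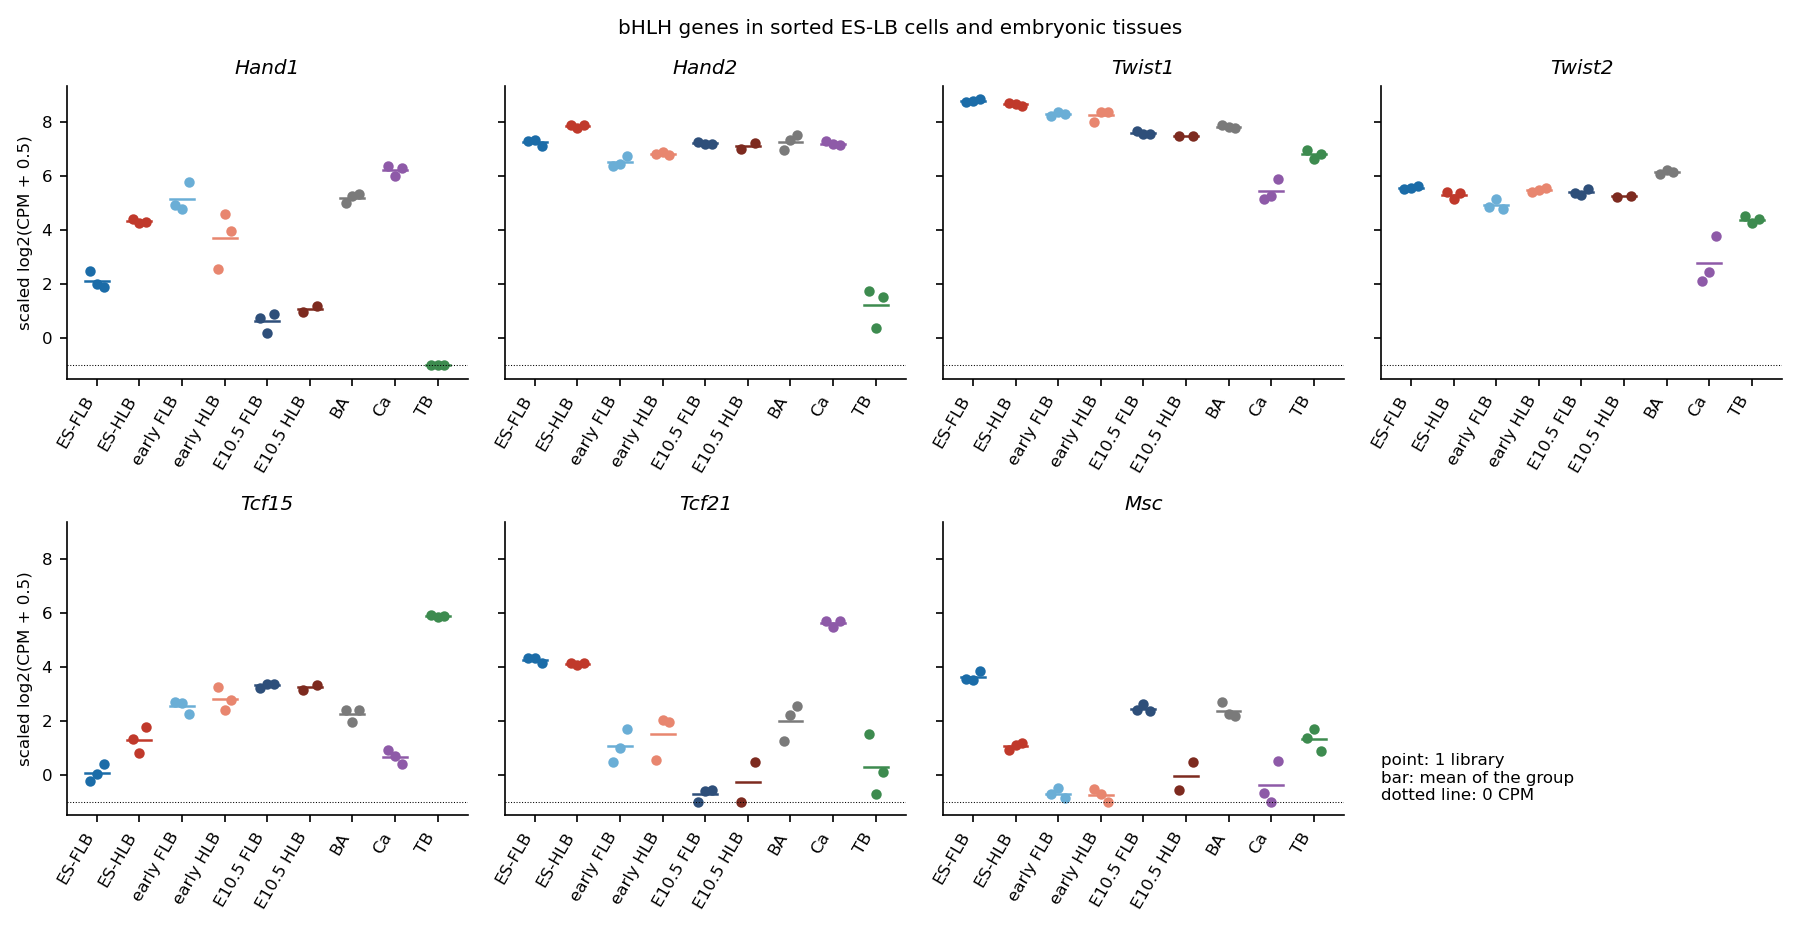
Level of the 7 bHLH genes in 26 libraries of 9 groups, as scaled log2(CPM + 0.5); each point is a library, each bar the mean of its group and the dotted line marks 0 CPM. Hand2 is low only in the tail bud, Tcf15 is highest there, Tcf21 is highest in the heart and next in the ES-LB cells, and Hand1 is at 0 in all 3 tail bud libraries.

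Hand2, the gene that carried the sorting reporter, stood within a narrow range in every tissue but the tail bud. It was at 240, 218 and 236 CPM in ES-HLBs and at 159, 162 and 139 CPM in ES-FLBs. In the early FLBs it was at 81.9, 86.0 and 107 CPM and in the early HLBs at 113, 118 and 109 CPM, and at E10.5 at 155, 147 and 145 CPM in FLBs and 129 and 149 CPM in HLBs. All 6 sorted libraries thus lay above all 6 early limb bud libraries, while ES-FLBs overlapped the E10.5 FLBs. Because the cells were sorted on Hand2 and the tissues were not, and because 1 allele carried the reporter, these levels are given with no test between sorted cells and tissues.

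Outside the limb, Hand2 was at 126, 161 and 183 CPM in BA and 156, 144 and 141 CPM in Ca, 2 tissues where it is known to act, and at 2.85, 0.811 and 2.39 CPM in TB. Among the embryonic tissues, neighbours in the order BA, E10.5 FLBs, Ca, E10.5 HLBs, early HLBs and early FLBs did not differ past the threshold of an adjusted p of 0.05. The early FLBs lay 5.29 above TB on the log2 scale (adjusted p = 9.43e-13 by limma).

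Hand1, the paralog of Hand2, varied far more between groups. It was at 82.7, 63.4 and 78.1 CPM in Ca and 32.1, 38.2 and 39.9 CPM in BA, and at 0 in all 3 TB libraries. In the early FLBs it was at 30.1, 27.1 and 54.4 CPM and in the early HLBs at 5.36, 23.5 and 15.2 CPM, but at E10.5 at 1.19, 0.657 and 1.38 CPM in FLBs and 1.47 and 1.77 CPM in HLBs. Both early groups thus lay wholly above both E10.5 groups, with the widest spread of any group in the early HLBs relative to their mean.

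ES-FLBs held Hand1 at 5.12, 3.58 and 3.22 CPM and ES-HLBs at 20.7, 19.0 and 19.1 CPM, so that the ES types did not overlap. In the order of levels (Ca, BA, early FLBs, ES-HLBs, early HLBs, ES-FLBs, E10.5 HLBs, E10.5 FLBs, TB), the neighbours that did not differ past the threshold were BA and the early FLBs, ES-HLBs and the early HLBs, and the E10.5 HLBs and FLBs. Against a floor of 0.372 CPM in TB (3 reads in 1 library), the mean of Ca was at least 201-fold higher and that of ES-HLBs at least 52.6-fold higher. Over the 36 pairs of groups, 19.0% to 78.4% of all genes differed in a pair. Hand1 differed in 33 pairs, Tcf15 in 32, Twist1 in 31, Msc in 28, Tcf21 in 26 and Twist2 in 20. The number of pairs per gene was not taken over all genes, so these counts only compare the members with each other.

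In the early limb buds Upk3b, Wt1 and Aldh1a2 of the epicardial list were highest in the library of each group with the most Hand1, and Tbx18 was not. Upk3b, which marks mesothelial cells, was at 15.1, 15.5 and 19.1 CPM in early FLBs 1 to 3 and at 4.14, 11.0 and 4.75 CPM in the early HLBs, and the libraries with the most Hand1 in each group, FLB 3 and HLB 2, were also those with the most Upk3b and Wt1. Aldh1a2 was at 47.8 CPM in FLB 3 against 42.7 and 44.0 CPM, and at 80.1 CPM in HLB 2 against 43.6 and 69.6 CPM. Upk1b, at 0.434 CPM or less (0.408 CPM in HLB 1 and 0.434 CPM in HLB 2), was too low to rank these libraries. Tbx18 alone, of the same list, was lowest in them, at 22.2 CPM in FLB 3 against 26.9 and 23.2 CPM and at 20.2 CPM in HLB 2 against 31.6 and 24.7 CPM. The sum of the 5 epicardial genes ranged from 93.3 to 103 CPM in the early FLBs and from 86.8 to 122 CPM in the early HLBs. It was highest in FLB 3 and HLB 2. In ES cells, where Hand1 differed between the types, Upk3b was at 0.119 to 0.352 CPM in all 6 libraries. The part of such cells in the Hand1 levels of the early buds was not tested.

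Twist1 was the most abundant member per length in every group but the heart, where Hand2 and Hand1 were higher. It was at 433, 442 and 460 CPM in ES-FLBs and 420, 412 and 388 CPM in ES-HLBs. The early FLBs held it at 302, 334 and 319 CPM and the early HLBs at 258, 330 and 333 CPM, and the E10.5 FLBs at 203, 191 and 191 CPM and the E10.5 HLBs at 179 and 178 CPM. ES cells, early and E10.5 limb buds thus formed 3 tiers with no overlap between them. BA held 222 to 235 CPM, TB 100 to 125 CPM and Ca 35.2, 37.9 and 58.8 CPM. Neighbours that did not differ were ES-FLBs and ES-HLBs, the early FLBs and HLBs, BA and the E10.5 FLBs, and the E10.5 FLBs and HLBs.

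Twist2 stayed within a narrow range among the limb bud groups. It ranged from 35.3 to 49.2 CPM in the 6 ES libraries, from 27.0 to 47.0 CPM in the 6 early limb bud libraries and from 37.5 to 45.1 CPM in the 5 libraries at E10.5. BA was highest at 67.5, 75.3 and 71.2 CPM, TB held 18.7 to 22.6 CPM and Ca 3.83, 5.04 and 13.4 CPM. Only TB and Ca, at the low end of the order, differed as neighbours (1.60 on the log2 scale, adjusted p = 2.38e-05). Replicate 3 of Ca was the highest of its group for both Twist genes.

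Tcf15, the paraxial mesoderm factor, was highest in TB, at 59.7, 57.5 and 58.1 CPM, where the paraxial genes Pax3 and Tbx6 averaged 83.4 and 47.1 CPM. Limb buds held it at 8.43 to 9.81 CPM at E10.5 and at 4.31 to 9.04 CPM in the early groups, and BA at 3.35 to 4.82 CPM. ES-FLBs held 0.357, 0.511 and 0.836 CPM, which is 3 to 7 reads a library, and ES-HLBs 2.00, 1.25 and 2.93 CPM. Every ES library lay below every limb bud library. Pax3, a gene of somites and muscle precursors, averaged 0.570 and 1.66 CPM in ES-FLBs and ES-HLBs and 8.20 to 16.9 CPM in the limb bud groups. The whole list of 8 paraxial genes did not follow Pax3. It summed to 35.3 to 42.8 CPM in ES-FLBs, 47.7 to 56.9 CPM in the early FLBs and 146 to 172 CPM in the E10.5 FLBs, and to 69.0 to 75.7 CPM in ES-HLBs, 33.1 to 49.2 CPM in the early HLBs and 70.3 to 70.7 CPM in the E10.5 HLBs. Of the 7 tested, 3 were higher and 3 lower in ES-FLBs than in the early FLBs, and 3 higher and 2 lower in ES-HLBs than in the early HLBs. The part of somite-derived cells in the Tcf15 level of unsorted limb buds was not tested.

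Tcf21 was at 50.7, 43.6 and 51.6 CPM in Ca and second highest in the sorted cells, at 19.3, 19.4 and 17.3 CPM in ES-FLBs and 17.3, 16.2 and 17.2 CPM in ES-HLBs. In the early limb buds it was at 0.904, 1.51 and 2.75 CPM in FLBs and 0.970, 3.64 and 3.34 CPM in HLBs. At E10.5 it was at 0, 0.164 and 0.172 CPM in FLBs, 2 reads in all, and at 0 and 0.886 CPM in HLBs, while BA held 1.89 to 5.29 CPM and TB 0.116 to 2.36 CPM. Only the sorted cells and the heart exceeded 6 CPM in every library, and neighbours from BA down to the E10.5 FLBs did not differ.

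Heart muscle genes, and Upk3b and Wt1 of the epicardial list, were low in the sorted cells beside Tcf21. Upk3b averaged 0.162 CPM in ES-FLBs, 0.205 CPM in ES-HLBs and 138 CPM in Ca, and Wt1 3.32, 1.21 and 47.3 CPM. The 6 heart muscle genes summed to 4.46 to 6.79 CPM in ES libraries and to at least 17597 CPM in Ca. The sum of the 5 epicardial genes, most of it Aldh1a2 and Tbx18, which other mesoderm also expresses, was 196 to 203 CPM in ES-FLBs and 61.8 to 74.0 CPM in ES-HLBs. It was 310 to 371 CPM in Ca and 82.6 to 149 CPM in limb buds. Aldh1a2 was higher in ES-FLBs, at 161 to 172 CPM, than in Ca, at 39.2 to 66.3 CPM.

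Msc was highest in ES-FLBs, at 11.2, 11.0 and 13.7 CPM, against 1.37, 1.67 and 1.76 CPM in ES-HLBs. In the embryo it was at 4.75, 5.59 and 4.65 CPM in the E10.5 FLBs, 6.02, 4.27 and 3.997 CPM in BA and 1.37 to 2.78 CPM in TB. The early limb buds held 7 reads in the 3 FLB libraries and 6 in the 3 HLB libraries, the E10.5 HLBs 0.183 and 0.886 CPM and Ca 0 to 0.941 CPM. Msc was thus higher in the forelimb type in culture and at E10.5 and near the floor in both early limb bud groups.

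Between the ES types, 3 of 7 members differed, 2 higher and 1 lower in ES-HLBs, where 19.7% of all genes tested did (10.8% higher and 8.89% lower). Without Hand2, on whose reporter both types were sorted, 3 of 6 differed. Hand1 was higher in ES-HLBs by 2.19 ± 0.35 (SE, log2, n = 3 libraries each), a 4.56-fold difference on this scale (adjusted p = 0.000159 by limma). Tcf15 was higher by 1.23 ± 0.22 (adjusted p = 8.70e-05), from a level near the floor, and Msc lower, with a difference of −2.57 ± 0.29 (adjusted p = 4.65e-08). These 3 calls held under all 16 alternative settings each.

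The other 4 members did not pass. The interval of the difference was −0.42 to 0.16 for Twist1, −0.82 to 0.29 for Twist2 and −1.20 to 0.93 for Tcf21. For Hand2 it was 0.11 to 1.08 (estimate 0.59, adjusted p = 0.0847, and 0.0406 at a pseudocount of 1), with all 3 ES-HLB libraries above all 3 ES-FLB libraries. Both types were sorted on the Hand2 reporter, so the Hand2 values here describe the sorted cells and are not to be read as a test of limb type. The spread used here was shared by all 9 groups. With the ES libraries alone, Hand2 (adjusted p = 1.06e-09), Twist1 (0.00891) and Twist2 (0.0087) passed as well, at the same sizes. In that fit 6 members were called, Hand2 with its limit from the sort among them, beside 25.1% of the genes tested. Libraries of ES-HLBs also held more mRNA of the pluripotency genes Pou5f1, Nanog, Zfp42 and Esrrb, with a sum of 45.6 to 65.9 CPM against 10.47 to 16.1 CPM in ES-FLBs, and their part in these differences was not tested.

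**Figure D2:**
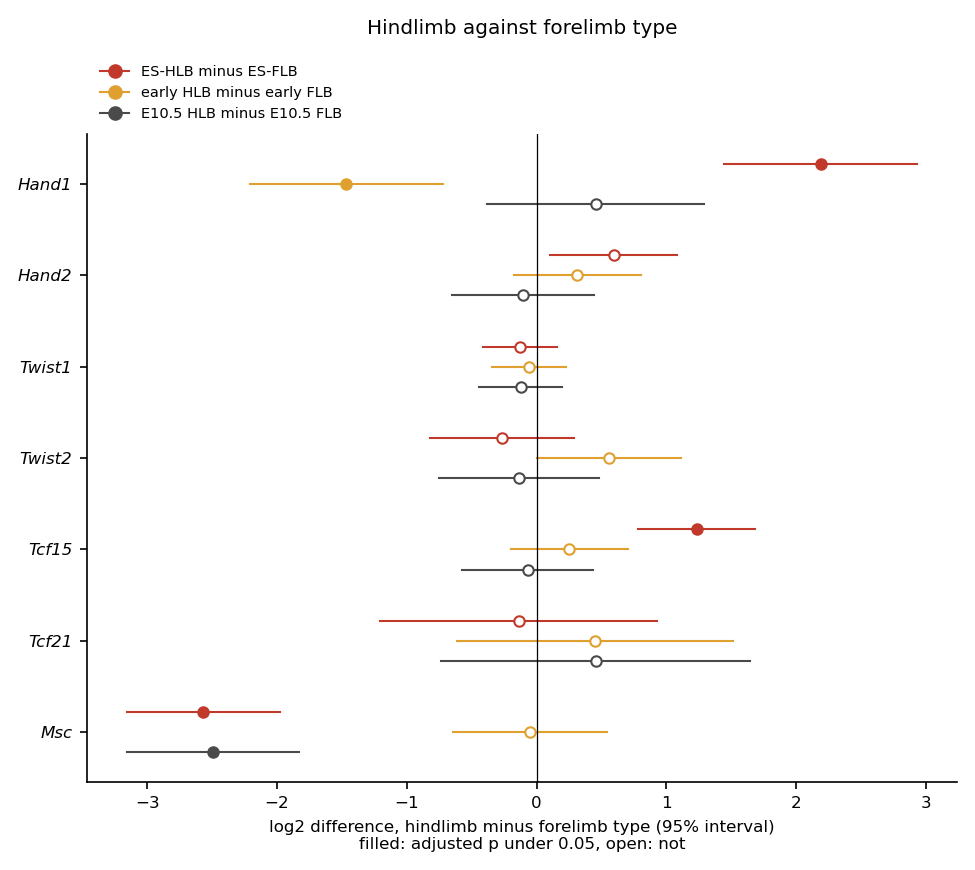
Log2 difference of each gene between hindlimb and forelimb type (x axis) with its 95% interval, in sorted ES-LB cells (red), early limb buds (yellow) and E10.5 limb buds (grey); filled points passed an adjusted p of 0.05. Hand1 is higher in the hindlimb type in culture and lower in the early HLBs, while Msc is lower in the hindlimb type in culture and at E10.5. Both ES types were sorted on the Hand2 reporter, so the red Hand2 point is drawn for description only.

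The same comparison in the embryo was made at both stages. Between the early limb buds 1 of 7 members differed, where 19.0% of all genes did (8.34% higher and 10.7% lower), and it was Hand1, lower in the HLBs (−1.47 ± 0.35, adjusted p = 0.00589). With the early limb bud libraries alone, whose Hand1 values are widely spread, the Hand1 call was lost (adjusted p = 0.212) and Hand2 (0.31, adjusted p = 0.0418) and Twist2 (0.56, adjusted p = 0.00269) passed, which made 2 members, beside 20.1% of the genes tested in that fit. Between the E10.5 limb buds 1 of 7 differed, where 22.5% of all genes did (12.7% higher and 9.79% lower), and it was Msc, lower in the HLBs (−2.49 ± 0.32, adjusted p = 1.52e-06). On data simulated for that pair, which has 2 HLB libraries, 90 of 100 genes changed by 1 on the log2 scale were found, and 34 genes were called falsely of 14498 tested. The genes changed there averaged 5 CPM or more over the pair, and 1 fixed spread was set for all genes. The simulation thus does not cover Hand1, Tcf21 and Msc, which averaged less over this pair.

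The difference between the limb types in culture was set against that between the early limb buds in 1 model. The difference of the differences was 3.65 ± 0.50 for Hand1 (adjusted p = 3.07e-05), −2.52 ± 0.41 for Msc (adjusted p = 2.85e-05) and 0.98 ± 0.31 for Tcf15 (adjusted p = 0.0237). This made 3 of 7 members, or 3 of 6 without Hand2, beside 20.0% of all genes (11.4% above 0 and 8.61% below). Hand1 thus took opposite directions in culture and in the early buds, a pair in which limb type and stage cannot be told apart. At E10.5 Hand1 was 0.45 higher in the HLBs, the direction seen in culture, but did not pass (interval −0.38 to 1.29). Of the 2 pairs set against each other here, Msc differed only in culture, being near 0 in both early groups. With the compared libraries alone, Twist2 passed too (−0.83, adjusted p = 6.82e-05). The Tcf15 value was lost at a pseudocount of 1 (0.70, adjusted p = 0.0607) and with those libraries alone (adjusted p = 0.0575). It was also lost without early FLB replicate 1 (adjusted p = 0.0619) or 2 (0.0571), early HLB replicate 2 (0.0882), ES-FLB replicate 1 (0.0755) or ES-HLB replicate 3 (0.102).

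Myf5, Myod1 and Myog were present beside Msc in the E10.5 FLBs and low in ES cells. These muscle determination genes averaged 6.14, 8.86 and 7.20 CPM in the E10.5 FLBs and 1.97, 0.266 and 0.549 CPM in the E10.5 HLBs, and all 3 were lower in the HLBs past the threshold, as Msc was. In ES cells none of them exceeded 0.697 CPM in any of 6 libraries, while Msc differed between the types. They are only 3 of 6 listed genes of muscle precursors, and the list as a whole is not reported here. Whether muscle precursors carried the difference in Msc at E10.5 was not tested.

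**Figure D3:**
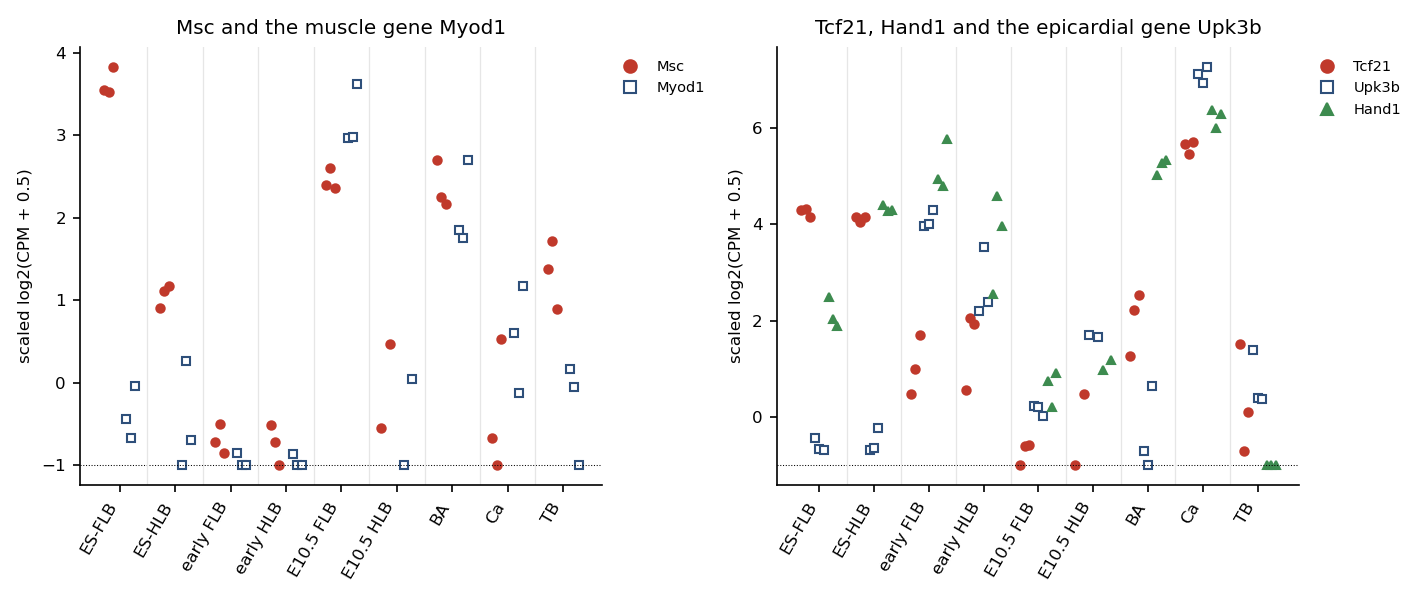
Msc with the muscle gene Myod1 (left), and Tcf21 and Hand1 with the mesothelial gene Upk3b (right), as scaled log2(CPM + 0.5) per library and group; the dotted line marks 0 CPM. Myod1 is high beside Msc in the E10.5 FLBs and near 0 beside it in ES-FLBs, and Upk3b is high beside Tcf21 in the heart and near 0 beside it in both ES types. Upk3b does not stand for the whole epicardial list, of which Aldh1a2 is higher in ES-FLBs than in the heart.

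How far the sorted cells differed from limb buds of the same type was asked at both stages, with Hand2 left out of the counts because of the sort. Against the early buds, 6 of 6 members differed in ES-FLBs, 4 higher and 2 lower, where 76.7% of all genes did (35.3% higher and 41.4% lower). In ES-HLBs 4 of 6 did, 3 higher and 1 lower, where 75.2% of all genes did (34.8% and 40.5%). Against the E10.5 buds 5 of 6 differed in each type, 4 higher and 1 lower. In ES-FLBs 68.6% of all genes did (32.9% higher and 35.7% lower) and in ES-HLBs 68.5% (32.9% and 35.6%). The 2 comparisons of each ES type share its 3 libraries. In those against the early buds, culture and depth cannot be told apart, as the early libraries were deeper.

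Tcf21 was higher in culture in all 4 comparisons, by 3.19 ± 0.51 against the early FLBs (adjusted p = 1.30e-05), 2.61 ± 0.51 against the early HLBs (0.000133), 4.98 ± 0.51 against the E10.5 FLBs (6.21e-08) and 4.39 ± 0.57 against the E10.5 HLBs (1.43e-06). In reads, ES-FLBs held 459 and the E10.5 FLBs 2, a ratio of 166 after scaling with an exact 95% interval of 45.7 to 1374 that covers counting error only. Tcf15 was lower in culture in all 4, with differences of −2.48 ± 0.22, −1.50 ± 0.22, −3.24 ± 0.22 and −1.94 ± 0.25 in the same order, at adjusted p-values from 3.33e-14 to 3.28e-07. No ES library overlapped a limb bud library for either gene.

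Twist1 was higher in culture in all 4 comparisons, by 0.48 ± 0.14 and 0.41 ± 0.14 against the early FLBs and HLBs (adjusted p = 0.00354 and 0.0106) and by 1.19 ± 0.14 and 1.19 ± 0.15 against the E10.5 FLBs and HLBs (3.35e-07 and 1.45e-06). Without early HLB replicate 1, the lowest of its group, the difference from the early HLBs was 0.29 (adjusted p = 0.0722). Twist2 passed only against the early FLBs (0.65 ± 0.26, adjusted p = 0.0331) and lost the call when any of 5 of the 6 compared libraries was left out, all but early FLB replicate 2 (adjusted p = 0.0547 to 0.0742).

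Msc was higher in culture in all 4, by 4.32 ± 0.29 and 1.81 ± 0.29 against the early FLBs and HLBs (adjusted p = 7.10e-15 and 1.48e-06) and by 1.18 ± 0.29 and 1.11 ± 0.32 against those of E10.5 (0.000639 and 0.00333). The difference from the E10.5 FLBs did not pass at a pseudocount of 0.1 (1.24, adjusted p = 0.0534), nor did that from the E10.5 HLBs without E10.5 HLB replicate 1 (0.60, adjusted p = 0.186). Hand1 was lower in ES-FLBs than in the early FLBs (−3.03 ± 0.35, adjusted p = 2.33e-07) and higher than in the E10.5 FLBs (1.51 ± 0.35, adjusted p = 0.000949). In ES-HLBs it did not differ from the early HLBs past the threshold (0.63, interval −0.12 to 1.37), but passed there without early HLB replicate 2 (1.07, adjusted p = 0.00469) and on CPM as deposited (0.87, adjusted p = 0.0295), and it was higher than in the E10.5 HLBs by 3.25 ± 0.40 (adjusted p = 6.17e-07).

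**Figure D4:**
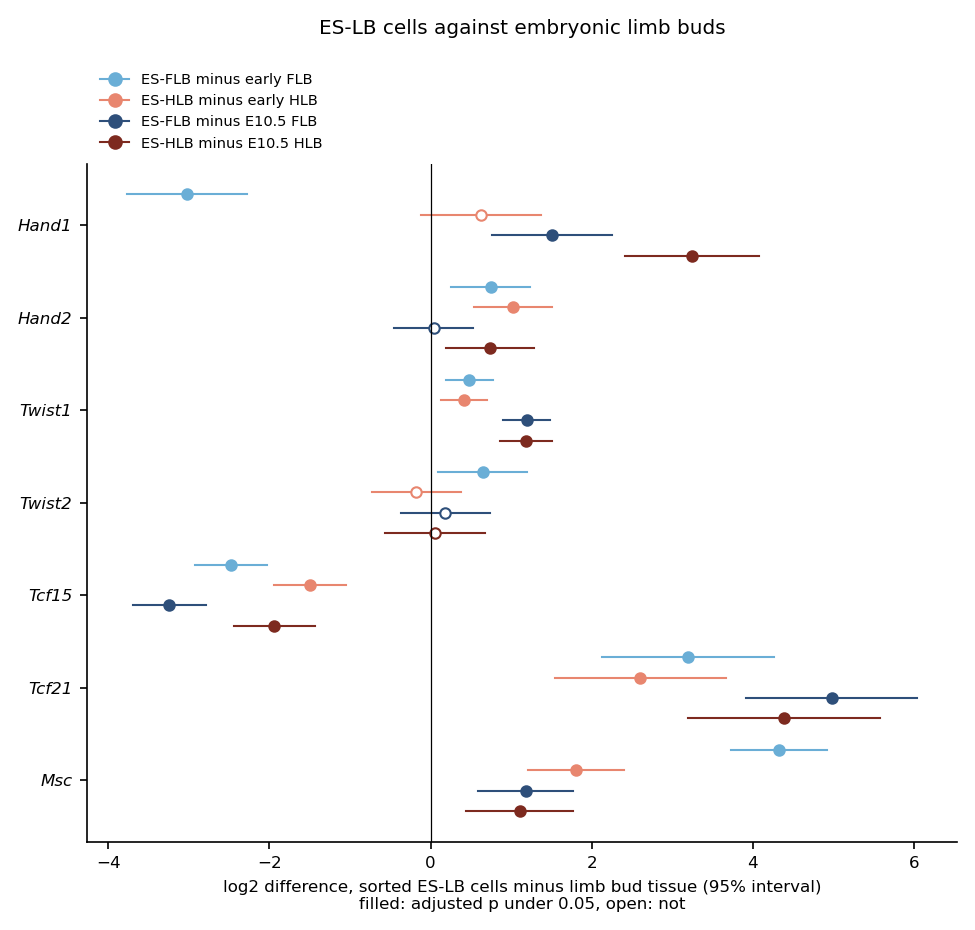
Log2 difference of each gene between sorted ES-LB cells and unsorted limb buds of the same type (x axis) with its 95% interval, for 4 comparisons in colours; filled points passed an adjusted p of 0.05. Tcf21 and Msc lie to the right and Tcf15 to the left in all 4. Hand2, on which the cells were sorted, is drawn for description only, and the fill and interval of its points are not to be read as a test.

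Endothelial, blood and epithelial markers were lower in the sorted cells than in limb buds, and sorting and culture cannot be told apart in this. The sum of 4 endothelial genes was 17.3 to 35.4 CPM in ES libraries and 252 to 359 CPM in limb buds, that of 4 blood genes 5.02 to 152 CPM against 2279 to 6702 CPM, and that of 5 epithelial genes 63.2 to 129 CPM against 169 to 411 CPM. The part of such cells in the higher Twist1 of the sorted cells was not tested.

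By the study's stages, the step from the early to the E10.5 buds was longer in FLBs than in HLBs. Limb type and length of step thus cannot be told apart in the stage results. Nor can stage and depth, as the early libraries were deeper. Stage in the embryo changed 6 of 7 members in FLBs, 3 in each direction, where 60.4% of all genes changed (24.3% higher and 36.1% lower at E10.5). In HLBs 3 of 7 changed, all lower, where 31.5% of all genes did (21.0% lower). Hand1 fell from the early to the E10.5 buds in both, with differences of −4.54 ± 0.35 in FLBs (adjusted p = 1.59e-09) and −2.62 ± 0.40 in HLBs (adjusted p = 5.12e-05). Twist1 fell as well, with −0.71 ± 0.14 (adjusted p = 0.000187) and −0.77 ± 0.15 (adjusted p = 0.000761). Tcf21 differed by −1.79 ± 0.51 (adjusted p = 0.00514) and −1.78 ± 0.57 (adjusted p = 0.0226), but the HLB call was lost without early HLB replicate 2 or 3 or E10.5 HLB replicate 1 (adjusted p = 0.0868, 0.0779 and 0.295).

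In FLBs 3 members rose with stage. Msc rose by 3.15 ± 0.29 (adjusted p = 5.51e-11), Tcf15 by 0.77 ± 0.22 (adjusted p = 0.00337) and Hand2 by 0.71 ± 0.23 (adjusted p = 0.0132). In HLBs the same 3 had differences of 0.70, 0.44 and 0.29 that did not pass. Msc passed there without E10.5 HLB replicate 1 (1.21, adjusted p = 0.0226), Tcf15 without early HLB replicate 1 (0.67, adjusted p = 0.0436) and with E10.5 HLB library 2 kept (0.58, adjusted p = 0.0422), and Hand2 with the compared libraries alone (0.29, adjusted p = 0.0117). Tested as the HLB change minus the FLB change, 2 of 7 members differed, beside 22.2% of all genes (12.8% above 0 and 9.38% below): Msc (−2.44 ± 0.44, adjusted p = 0.00012) and Hand1 (1.92 ± 0.53, adjusted p = 0.0142). The 2 changes span steps of unlike length by the study's stages. The Hand1 value was lost with the compared libraries alone (adjusted p = 0.118) and without E10.5 HLB replicate 3 (1.82, adjusted p = 0.0544), and for Hand2 and Tcf15 the difference did not pass (intervals −1.15 to 0.31 and −0.995 to 0.35). With the compared libraries alone, Hand2 (−0.42, adjusted p = 0.0257) and Twist2 (−0.69, adjusted p = 0.00113) passed instead.

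Against the other tissues, the mean of the E10.5 limb buds and the mean of the ES types were each compared with BA, Ca and TB, and these comparisons share the tissue libraries. For the E10.5 limb buds 5 of 7 members differed from BA (1 higher, 4 lower), beside 33.4% of all genes (17.2% higher and 16.2% lower). From Ca 6 differed (4 higher, 2 lower), beside 76.9% (39.8% and 37.1%), and from TB 5 (4 higher, 1 lower), beside 46.2% (23.7% and 22.5%). For the ES types, without Hand2, 5 of 6 differed from BA (2 higher, 3 lower), beside 69.7% (33.2% and 36.5%). From Ca 5 did (3 higher, 2 lower), beside 80.9% (41.3% and 39.5%), and from TB 6 (5 higher, 1 lower), beside 76.0% (36.4% and 39.6%).

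BA, of the 3 tissues the one with the fewest genes called against the E10.5 limb buds, had far more Hand1 than the E10.5 limb buds (−4.36 ± 0.32 for limb buds minus BA, adjusted p = 2.73e-09) and more Tcf21 (−2.50 ± 0.46, adjusted p = 0.000321) and Twist2 (−0.83 ± 0.24, adjusted p = 0.0112), and less Tcf15 (1.03 ± 0.20, adjusted p = 0.000139). Msc differed from the mean of the limb buds (−1.17 ± 0.26, adjusted p = 0.000744), which pools unlike groups, since BA exceeded the E10.5 HLBs by 2.42 (adjusted p = 5.13e-07) but not the E10.5 FLBs (−0.08, adjusted p = 0.898). The Hand2 difference did not pass (interval −0.55 to 0.33). Against the same BA libraries, ES cells had less Hand1 (−1.98 ± 0.31), less Tcf15 (−1.57 ± 0.19) and less Twist2 (−0.72 ± 0.23), and more Tcf21 (2.19 ± 0.44) and Twist1 (0.91 ± 0.12), each past the threshold.

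Ca had less of both Twist genes than either. Limb buds at E10.5 exceeded it by 2.11 ± 0.12 for Twist1 (adjusted p = 9.73e-12) and 2.54 ± 0.24 for Twist2 (adjusted p = 1.35e-08), and ES cells by 3.30 ± 0.12 and 2.65 ± 0.23. Tcf21 was lower than in Ca in E10.5 limb buds (−6.11 ± 0.46) and in ES cells (−1.43 ± 0.44, adjusted p = 0.00613), the latter a call that a pseudocount of 0.1 removed (adjusted p = 0.0693). For Tcf15 the mean of the ES types did not pass against Ca (0.02, interval −0.37 to 0.41), but that mean pools types on either side, as Ca lay above ES-FLBs by 0.60 (adjusted p = 0.0145) and below ES-HLBs (−0.63, adjusted p = 0.0103). Against TB, Tcf15 was lower in limb buds (−2.60 ± 0.20) and in ES cells (−5.19 ± 0.19).

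Ratios within a library do not depend on the scaling. Per kb of exon, Twist1 exceeded Hand2 by 3.93 to 4.79 times in ES-FLBs and by 2.38 to 2.73 times in ES-HLBs, so the ES types did not overlap. In the early FLBs the ratio was 4.31 to 5.60 and in the early HLBs 3.30 to 4.41, and at E10.5 it was 1.87 to 1.90 in FLBs and 1.72 to 2.01 in HLBs. It fell below 1 only in Ca, at 0.327 to 0.602, and was highest in TB at 63.4 to 178. Because the cells were sorted on Hand2, the ratios of the ES types, and those of ES cells and tissues, only stand side by side.

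Of the 2 Hand genes together, Hand1 made up 27.1% to 37.5% per kb in the early FLBs and 5.29% to 19.0% in the early HLBs, but 0.522% to 1.11% and 1.32% to 1.38% at E10.5. It made up 2.54% to 3.65% in ES-FLBs and 8.71% to 9.30% in ES-HLBs, 20.4% to 23.0% in BA and 34.1% to 39.5% in Ca. Twist2 made up 4.17% to 14.7% of the Twist pair in every library, with BA at the high end. These ratios were set up after the levels were known and were not tested.

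**Figure D5:**
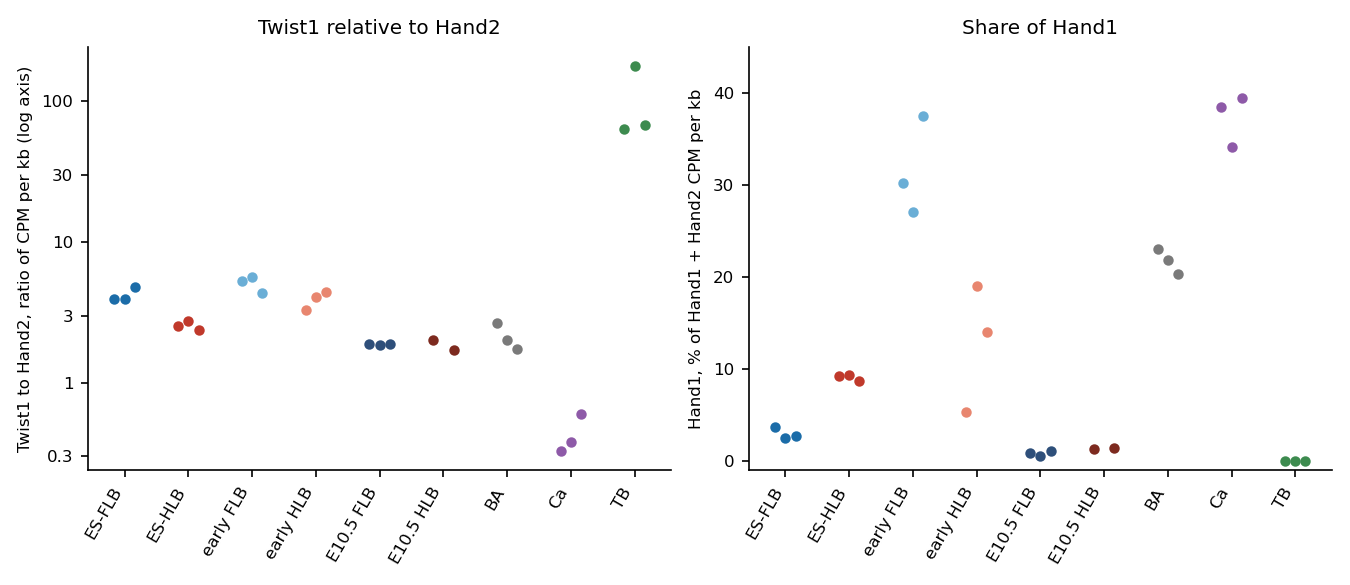
Ratio of Twist1 to Hand2 in CPM per kb of exon (left, log axis) and share of Hand1 in the sum of Hand1 and Hand2 (right, %), by library in 9 groups. The ratio is 1.72 to 5.60 in all ES and limb bud libraries, under 1 in the heart and at least 63.4 in the tail bud, and the Hand1 share of the early limb buds is above that of E10.5 limb buds in every library.

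Among the members themselves, group means of log2(CPM + 0.5) over the 9 groups were most alike for Twist1 and Twist2 (Pearson's r = 0.83) and most opposed for Tcf15 and Tcf21 (r = −0.81) and for Hand2 and Tcf15 (r = −0.78). Hand1 and Hand2 had r = 0.60. These values describe 9 points, TB with high Tcf15 and almost no Hand mRNA among them, which share 1 scaling and differ in depth and sorting.

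Over the same 9 groups and among 1873 genes whose group means varied (SD of 1 or more), the 3 genes most like each member were Wnt2b (r = 0.851), Tmem108 and Ass1 for Hand1, and Capn6 (r = 0.940), Cdo1 and Shox2 for Hand2. For Twist1 they were Figf (r = 0.970), Apcdd1 and 5930412G12Rik, and for Twist2 Tnfaip6 (r = 0.945), Alx4 and Kif5c. Tcf15 was most like Pax3 (r = 0.974), Pax7 and Susd4, Tcf21 most like Dpysl3 (r = 0.974), Sphkap and Rhox5, and Msc most like Angptl1 (r = 0.954), Six2 and Serinc2. Pax3 and Pax7 are genes of the somites.

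The E proteins were expressed throughout. Tcf12 was at means of 698 and 658 CPM in ES-FLBs and ES-HLBs and 468 to 578 CPM in the limb bud groups, and Tcf3 at 348 and 343 CPM against 434 to 481 CPM. Tcf4 was at 304 and 385 CPM against 168 to 313 CPM. The 3 E proteins summed to 1322 to 1392 CPM in ES libraries, 1081 to 1396 CPM in limb buds and only 387 to 451 CPM in Ca. Between the ES types 1 of 3 differed, Tcf4, higher in ES-HLBs by 0.34 (adjusted p = 7.90e-05), and against the early HLBs all 3 did, with Tcf4 higher by 1.01, Tcf12 by 0.49 and Tcf3 lower (−0.49). The median of the 3 in that comparison was 0.49, beside −0.05 over all genes. The share of all genes called was 19.7% between the ES types and 75.2% against the early HLBs.

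The Id genes that passed between sorted cells and limb buds were all higher in the sorted cells. Against the early HLBs, 3 of 4 were higher in ES-HLBs (Id1 by 0.54, Id2 by 1.12 and Id4 by 2.17), with a median of 0.83 beside −0.05 over all genes, and against the early FLBs 2 of 4 were higher in ES-FLBs (Id2 by 0.98 and Id4 by 2.07). Against the E10.5 buds, 4 of 4 were higher in ES-FLBs and 3 of 4 in ES-HLBs. Of all genes, 34.8%, 35.3%, 32.9% and 32.9% were higher in these 4 comparisons, in the order given. Id2 averaged 289 CPM in ES-FLBs and 216 CPM in ES-HLBs, against 99.2 to 147 CPM in limb buds. Between limb types Ids were lower in the hindlimb type: 3 of 4 in ES-HLBs (Id2, Id3 and Id4), 4 of 4 in the early HLBs and 3 of 4 in the E10.5 HLBs (Id1, Id2 and Id4), and none was higher there. The shares of all genes that were lower in these comparisons were 8.89%, 10.7% and 9.79%, in the same order.

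Of 13 genes of the limb circuit around Hand2 and Twist1 (Shh, Gli3, Ptch1, Gli1, Grem1, Tbx2, Tbx3, Hoxd13, Alx4, Fgf10, Fgfr1, Fgfr2 and Irx3), 3 were higher and 7 lower in ES-HLBs than in ES-FLBs, with a median of −0.67 beside 0.00 over all genes, where 19.7% of all genes were called. Against the early buds 7 were higher and 4 lower in ES-FLBs, and 5 and 5 in ES-HLBs, where 76.7% and 75.2% of all genes were called. Of the 6 most abundant, Tbx2, a T-box repressor of the limb margins, had the largest difference from the early buds, at 38.4 CPM in both early groups and 408 and 293 CPM in ES-FLBs and ES-HLBs. The FGF receptor gene Fgfr1 was at 506 and 508 CPM in culture against 223 and 274 CPM, and Gli3, the hedgehog repressor that opposes Hand2, was lower in culture, at 127 and 148 CPM against 262 and 287 CPM. Ptch1, a target of hedgehog signalling, was higher in culture, at 142 and 66.4 CPM against 30.3 and 46.1 CPM.

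Fgfr2 was lower, at 106 and 65.7 CPM against 149 and 97.1 CPM, and Alx4, an anterior gene, stood at 183 and 115 CPM against 101 and 170 CPM and did not pass in either. Shh itself averaged 3.11 and 1.29 CPM in ES-FLBs and ES-HLBs, 0.599 and 2.43 CPM in the early FLBs and HLBs, and 11.9 and 11.1 CPM at E10.5.

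Other tissue-restricted bHLH genes were counted from a list of 18, of which 17 were in the table, 13 were tested and 11 reached a group mean of 5 CPM. Between the ES types 2 of 13 differed, beside 19.7% of all genes (10.8% higher). They were Tal1 and Lyl1 of the blood lineage, both higher in ES-HLBs, where the 4 blood genes summed to 81.0 to 152 CPM against 5.02 to 7.66 CPM in ES-FLBs. Bhlha9, a gene of the limb bud ridge, averaged 0.0397 and 0 CPM in ES-FLBs and ES-HLBs and 10.3 to 19.0 CPM in the limb bud groups. Scx, the tendon progenitor factor, averaged 14.7 and 12.5 CPM in culture, 1.57 and 3.05 CPM in the early buds and 42.6 and 22.4 CPM in E10.5 FLBs and HLBs, and so was higher in culture than in the early buds by 2.87 and 2.11 (adjusted p = 5.39e-07 and 2.94e-05).

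The remaining named bHLH genes followed their tissues. Msgn1 and Mesp2, of unsegmented and segmenting paraxial mesoderm, averaged 24.5 and 6.28 CPM in TB and at most 0.315 CPM in any other group. Myf5 and Myog averaged 10.47 and 19.1 CPM in TB, and Myod1 8.86 CPM in the E10.5 FLBs. Tal1 and Lyl1 averaged 103 and 26.6 CPM in Ca, and the neuronal genes Nhlh1 and Nhlh2 were highest in BA, at 5.08 and 6.73 CPM with wide spread.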

How the data were processed

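The authors deposited 1 CPM value per gene and library, made from stranded mRNA libraries that were mapped to mm10 and counted per gene. The submitters' processing notes name FastQC 0.11.5, HISAT2 2.0.4, Cuffdiff, Cufflinks 2.1.1 and edgeR 3.16.2. Values of each library sum to 1000000. Because not all values were whole multiples of 1 read (94.0% or more of low values were, within 0.02 of a read), they were not treated as counts.

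Libraries were scaled by an unweighted trimmed mean of log ratios (30% of ratios and 5% of intensities trimmed at each end). Genes reaching 1 CPM in 3 libraries were kept and fitted on log2(CPM + 0.5) in 1 limma 3.58.1 model of the 9 groups (variance trend, robust, R 4.3.3), with Benjamini-Hochberg adjustment over 14438 genes and a threshold of 0.05. Intervals are 95%. Tables and plots used Python 3.11.15, pandas 2.3.3, scipy 1.17.1 and matplotlib 3.10.9. Tested on simulated data for 4 comparisons, the model found 90 to 98 of 100 genes changed by 1 on the log2 scale and 100 of 100 changed by 2, with 3 to 34 false calls. The changed genes averaged 5 CPM or more over the compared pair, and 1 fixed spread was set for all genes, so members at lower levels are not covered.

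Members, gene lists and comparisons were chosen with earlier results of these data known. Named are all members, E and Id proteins, the 6 limb circuit genes with the highest mean CPM, the other bHLH genes with a group mean of 5 CPM or more, and the 3 genes most like each member; Shh and marker genes were named after their values were seen. Alternatives changed the scaling, pseudocount, filter, model and libraries used. Detection floors cover counting error only. Positions, overlaps and exon lengths are from GENCODE M21 and promoters from RefSeq. The sum over the listed muscle precursor genes is not reported here.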

Additional observations from a re-analysis of the deposited data

Results flagged for a closer look

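The effect of limb type differed between culture and the early limb buds, by a test of the difference itself, for Hand1 (3.65 on the log2 scale, higher in ES-HLBs than ES-FLBs in 3 of 3 libraries and lower in the early HLBs), Tcf15 (0.98) and Msc (−2.52). The Tcf15 value was lost in 7 of 22 alternatives. The effect of stage differed between HLBs and FLBs for Hand1 (1.92) and Msc (−2.44), and the Hand1 value was lost with the compared libraries alone (adjusted p = 0.118) and without E10.5 HLB replicate 3 (adjusted p = 0.0544). Limb type and stage cannot be told apart in the early buds, and the step to E10.5 was shorter in HLBs by the study's stages.

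Replicate 2 of the E10.5 HLBs, which was left out of the comparisons apart from 1 alternative, held members above its own floor of 0.819 CPM. After scaling Twist1 was at 188 CPM, Twist2 at 39.8 CPM, Tcf15 at 11.8 CPM and Hand1 at 3.26 CPM there. For Hand1 and Tcf15 these lay above both other libraries of the group, and Hand2 lies on a chromosome without values in it. Groups of 2 or 3 libraries are too small for a test of single outlying libraries.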

How the results depend on the processing

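The number of members called moved past 1.5 times its value in 3 cases. With the compared groups only, 6 members were called between the ES types, Hand2 among them, beside 25.1% of genes. There were 2 between the early limb buds, beside 20.1%, and without E10.5 HLB replicate 3 the stage difference kept 1. Leaving out each library in turn gave 3 members for ES-HLBs against ES-FLBs, 1 at each stage between limb types, 6 and 2 to 4 for stage in FLBs and HLBs, 2 to 3 for the difference between culture and embryo and 1 to 2 for the stage difference, and 5 to 6 for E10.5 limb buds against BA, Ca and TB. Without Hand2, ES cells against tissues gave 5 to 6 for ES-FLBs and 3 to 5 for ES-HLBs against early buds, 5 and 4 to 5 against E10.5 buds and 5 to 6 against BA, Ca and TB. Of 875 such single values, 832 kept direction and call, 17 lost the call, 4 gained it and 22 turned. No filter, a filter at 5 CPM, and a model without trend changed none of 119.

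The differences that turned sign had not been called. On CPM as deposited, Twist2 in ES-HLBs against early HLBs was 0.0728, Msc in ES cells against BA 0.0164, Hand2 in E10.5 limb buds against Ca 0.0400 and the stage difference of Tcf21 −0.0370. With median of ratios scaling, Tcf15 in ES cells against Ca was −0.0070 and the Tcf21 stage difference −0.0022. A pseudocount of 0.1 gave −0.0499 for Tcf15 against Ca, and of 1 gave 0.0230 for Msc against BA and −0.0741 for the Tcf21 stage difference. With E10.5 HLB library 2 kept, Tcf15 between E10.5 limb types was 0.0340.

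With single libraries left out, Hand2 ranged from −0.0042 to 0.1069 in ES-FLBs against E10.5 FLBs, −0.2115 to 0.0037 between E10.5 limb types, −0.2585 to 0.0087 for E10.5 buds against BA and −0.0842 to 0.0234 against Ca. Between early buds Twist1 ranged from −0.1225 to 0.0602 and Msc from −0.168 to 0.0797. Between E10.5 limb types Tcf15 ranged from −0.1548 to 0.0188 and Tcf21 from −0.2791 to 1.1927. Msc ranged from −0.1297 to 0.1378 in ES cells against BA and −0.3808 to 0.1296 in E10.5 buds against TB, Tcf15 from −0.1258 to 0.146 in ES cells against Ca, and the Tcf21 stage difference from −0.729 to 0.7427. The causes were not tested.

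Same-numbered replicates were not taken as pairs, since only 3 of 100 pairs had a correlation of their deviations over 0.1 (median r 0.017), although 19 of 26 libraries were closest to their own number, a hint from the data. The replicate block changed no call and turned the Tcf21 stage difference to −0.0146. Count models (edgeR, DESeq2) were not run, since the values are not all whole reads. CPM as deposited shifted the median of all genes by −0.12 to 0.27 and the share of calls that were higher by over 10 percentage points in 11 of 17 comparisons. Depth limits Tcf21 at E10.5, Msc in the early buds and Tcf15 in ES-FLBs, which rest on 14 reads or fewer a group.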
